A study of Mus musculus with 9 samples.

Results

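The Shaker-type Kv1 potassium channels were followed here through 9 genes, taken by family membership and with earlier results of these data known. They are the 6 pore-forming subunits *Kcna1* to *Kcna6* and the 3 beta subunits *Kcnab1*, *Kcnab2* and *Kcnab3*, of 18559 protein-coding genes with a count in these data. All transcript rows of each gene were taken, 33 of the 107384 in the table, and read both summed to the gene and row by row.

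Kv1 channels open when a neuron depolarizes and let potassium out, which sets the firing threshold and shortens the action potential. A channel is a tetramer of Kcna subunits, alike or mixed, and Kcnab subunits attach to its cytoplasmic side, where some of them speed inactivation or help carry the channel to the axon. In cortical neurons Kv1 channels are known from the axon initial segment and the terminals. Inherited changes in *KCNA1* and *KCNA2* are known from episodic ataxia and epilepsy.

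RNA immunoprecipitation followed by sequencing (RIP-seq) recovers the RNA held by a protein with an antibody against it. The 9 libraries were made from cytoplasm of newborn cortex, at postnatal day 0, in mice heterozygous for the *Celf2* KI allele. The allele is R493H, a missense knock-in at the nuclear localization signal of CELF2, an RNA-binding protein that recognizes G- and U-rich sequence. There were 3 CELF2-KI RIPs, pulled down over 3 hours with an anti-CELF2 antibody raised in rabbit (10 µg), 3 IgG RIPs with as much normal rabbit IgG, and 3 total input samples, an aliquot of the same kind of fraction set aside before pull-down. The controls carry the knock-in allele too, and no group of wild-type animals was analysed here, so every value describes RNA that came down with CELF2 in KI cytoplasm, not an effect of the variant. The labels call the 3 replicates biological and give no animal numbers, sexes or pooling.

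Protein-coding genes held 13523208 to 16840312 estimated counts in the CELF2-KI RIPs, 9347321 to 14965243 in the IgG RIPs and 55250740 to 78514685 in the total input samples. Rows that matched no gene took 21.1% to 43.5% of the counts in the IgG RIPs and at most 12.6% elsewhere. The mRNA of *Celf2* itself was 2.74-fold higher in CELF2-KI RIPs than in IgG RIPs (log2 1.46 ± 0.18 SE, FDR = 9.69e-05, edgeR) and 2.16-fold higher than in input (log2 1.11 ± 0.18 SE, FDR = 0.000434). The call over input was lost under other scalings, with log2 values of 0.63 to 0.97, and without CELF2-KI RIP replicate 2 or input replicate 2. This is the mRNA of the protein pulled down and does not measure recovery of the protein. Summed excitatory neuron markers (6 genes, none at 0) were 1584 to 2176 CPM in the CELF2-KI RIPs, 839.9 to 965 in the IgG RIPs and 886 to 1029 in input. One by one, 5 of 6 had log2 values above 0 over IgG and 5 over input, with the lowest at -0.14 and -0.64. Summed inhibitory neuron markers (6 genes) were also higher in the RIPs, at 587 to 725 CPM against 330 to 382 and 462 to 479. Of these, 5 were above 0 over IgG and 4 over input. Erythroid markers (5 genes) were 92.7 to 94.96, 366 to 584 and 877 to 1135 CPM in the same order. These sums describe RNA recovered from a fraction of mixed cells and do not count cells. The part of these marker differences in the values below was not tested.

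Positions are those of the mouse genome GRCm38.p6. *Kcna3* (chr3:107036162-107038129) and *Kcna2* (chr3:107090883-107115005) are 52.8 kb apart with no protein-coding gene between them. *Kcna5* (chr6:126532551-126535555), *Kcna1* (chr6:126636463-126645801) and *Kcna6* (chr6:126708328-126740834) form a second cluster, with gaps of 100.9 kb and 62.5 kb that also hold no protein-coding gene. *Kcna4* (chr2:107290589-107326804), *Kcnab1* (chr3:64949212-65378225), *Kcnab2* (chr4:152390744-152477549) and *Kcnab3* (chr11:69326258-69333041) stand alone. RefSeq promoter windows were matched for 7 of the 9 genes, and 3 of them are printed here because their genes passed the call in a comparison below. The windows run from 250 bases before the transcript start to the first 30 bases of the RNA, which are in capitals. The windows are chr3:107101317-107101596 on the plus strand for *Kcna2*, chr3:107035912-107036191 on the plus strand for *Kcna3* and chr6:126535526-126535805 on the minus strand for *Kcna5*. The *Kcna2* window lies inside the gene as positioned above, so it shows an internal transcript start and not the gene's first base.
Kcna2: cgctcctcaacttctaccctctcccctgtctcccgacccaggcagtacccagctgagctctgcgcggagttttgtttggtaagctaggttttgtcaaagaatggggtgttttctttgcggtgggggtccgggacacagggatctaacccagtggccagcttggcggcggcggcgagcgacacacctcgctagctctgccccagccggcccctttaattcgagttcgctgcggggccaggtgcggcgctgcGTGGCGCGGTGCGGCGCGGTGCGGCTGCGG
Kcna3: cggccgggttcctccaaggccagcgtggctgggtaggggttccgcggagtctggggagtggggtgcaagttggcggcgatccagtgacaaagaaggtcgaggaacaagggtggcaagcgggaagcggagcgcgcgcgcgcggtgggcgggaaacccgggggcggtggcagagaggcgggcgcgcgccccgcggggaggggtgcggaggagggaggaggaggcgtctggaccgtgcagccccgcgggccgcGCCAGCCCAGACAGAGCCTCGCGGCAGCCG
Kcna5: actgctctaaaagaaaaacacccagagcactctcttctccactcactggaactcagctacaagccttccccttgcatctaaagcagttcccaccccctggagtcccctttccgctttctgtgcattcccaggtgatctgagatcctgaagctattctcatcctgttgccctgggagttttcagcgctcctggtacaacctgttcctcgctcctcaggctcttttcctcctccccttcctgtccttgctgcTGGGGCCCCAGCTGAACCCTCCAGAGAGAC
The *Kcna2* and *Kcna3* windows are G and C rich, at 65.0% and 74.6% of bases, against 54.6% for *Kcna5*. The words TGTTT and TGTGT, the DNA form of the G- and U-rich words that CELF proteins are known to bind, were searched on both strands, with overlapping matches counted. *Kcna2* held TGTTT 2 times on the printed strand and TGTGT 2 times on the opposite strand, *Kcna5* held TGTTT once on the opposite strand, and *Kcna3* held neither. Of 32851 promoter windows, 49.0% held TGTTT and 45.6% held TGTGT on either strand. In the first 50 bases of the RNA, on its own strand, neither word was found for *Kcna2*, *Kcna3* or *Kcna5*, and *Kcna6* held TGTGT once, against 4.96% of all windows with TGTTT there and 5.52% with TGTGT. These matches describe letters in a short window and are not binding sites, and the rest of each mRNA was not searched.

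All 9 genes passed the filter of 0.5 CPM in at least 3 libraries. CPM is the count per 1000000 of the TMM-scaled library size, and since it is not divided by transcript length it is compared here between libraries of 1 gene, never between genes. A gene was called when its FDR over all 15267 tested genes was under 0.01 and its estimated change at least 2-fold, and a target is a gene called higher in CELF2-KI RIPs than in both controls. By these criteria 1 of the 9 genes, *Kcna2*, was a target, against 7.58% of all tested genes, and 0 of 9 were called lower than both controls, against 9.54%. Over IgG RIPs, 2 of 9 were called higher, *Kcna2* and *Kcna3*, against a background of 13.4%, and 0 were called lower, against 13.6% (27% in either direction). Over total input, 1 of 9 was called higher, *Kcna2*, against 14.6%, and 1 was called lower, *Kcna5*, against 15.5% (30.1% in either direction). With so few members these shares do not set the family apart from other genes.

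**Figure D1:**
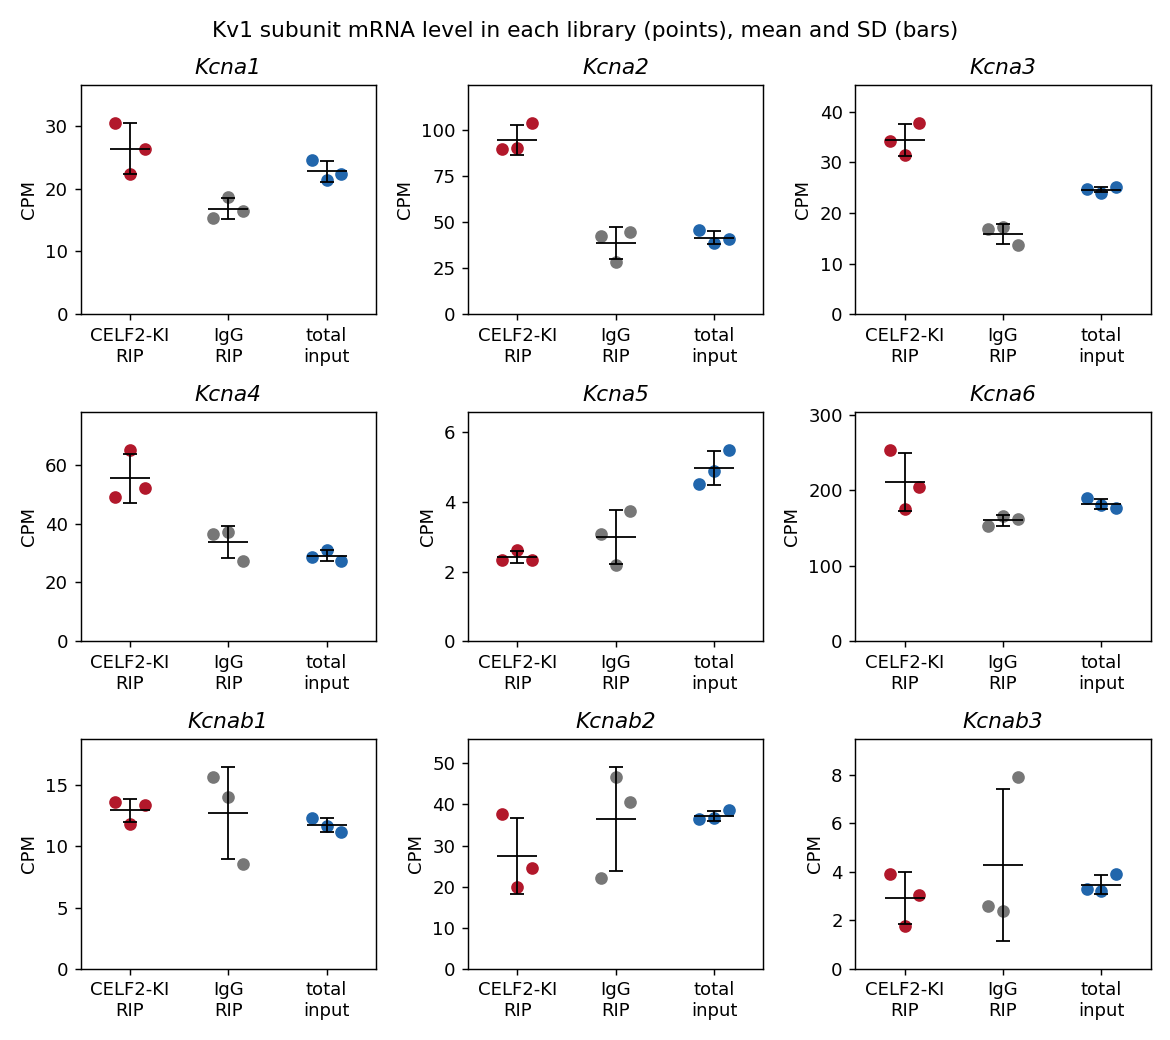
CPM of each Kv1 subunit gene (vertical axis, linear from 0, its own scale in each panel) in 3 CELF2-KI RIPs, 3 IgG RIPs and 3 total input samples; points are libraries and black bars the mean and SD. The *Kcna2* RIP points, 89.3 to 104 CPM, sit above all 6 control points, while those of *Kcnab1*, *Kcnab2* and *Kcnab3* overlap with both controls.

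*Kcna2* encodes Kv1.2, which pairs with Kv1.1 in axons and gives a slowly inactivating current. Its level was 89.3, 90.01 and 104 CPM in the CELF2-KI RIPs, 42.5, 28.4 and 44.4 in the IgG RIPs and 45.6, 38.5 and 40.6 in the total input samples. All 3 RIP libraries stood above all 6 controls, and the IgG and input levels overlapped. It was 2.45-fold higher than in IgG RIPs (log2 1.29 ± 0.17 SE, 95% interval 0.91 to 1.67, FDR = 0.00013) and 2.27-fold higher than in input (log2 1.18 ± 0.17 SE, interval 0.81 to 1.56, FDR = 0.000182). IgG RIPs and input differed by a log2 of -0.11 ± 0.17 SE (FDR = 0.63). Both calls were kept in all 9 fits that left out 1 library, with log2 values of 1.13 to 1.40 over IgG and 1.02 to 1.25 over input. Both intervals reach below the 2-fold line, and both calls were lost with glmTreat, which tests against that line itself. Both were also lost with curated rows only and with rows of the same accession version only. The call over IgG was lost when libraries were scaled by total counts (0.92), and the call over input was lost with total counts (0.72), upper quartile scaling (0.94) or TMM with noncoding genes (0.79), and when only the 2 conditions compared were fitted (0.96). Those scalings move all genes: against the median of all tested genes, which was -0.06 over IgG and 0.19 over input, *Kcna2* stood 1.35 and 0.99 higher, and by total counts 1.35 and 0.99.

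*Kcna3* encodes Kv1.3, best known from T lymphocytes and microglia and also present in neurons. The CELF2-KI RIPs held 34.2, 31.4 and 37.8 CPM, the IgG RIPs 16.8, 17.2 and 13.7 and the input samples 24.7, 24.0 and 25.2. The 3 conditions did not overlap and stood in the order RIP, input, IgG. It was called higher over IgG RIPs, 2.17-fold (log2 1.11 ± 0.14 SE, interval 0.80 to 1.43, FDR = 9.76e-05). Over input its log2 difference was 0.48 ± 0.14 SE (interval 0.18 to 0.79, FDR = 0.0109), short of both criteria, and IgG RIPs stood 0.63 ± 0.14 SE below input on the log2 scale (FDR = 0.0056), short of the 2-fold criterion. The call over IgG was kept in all 9 fits without 1 library. It was lost under total counts (0.75), upper quartile (0.85) and TMM with noncoding genes (0.90). It was also lost with glmTreat, with curated rows only (0.96) and with rows of the same accession version only (0.98). Summed microglial markers (6 genes) were 83.8 to 115 CPM in the CELF2-KI RIPs, 42.1 to 54.3 in the IgG RIPs and 75.1 to 98.2 in input, so their sum, like *Kcna3*, was higher in all 3 RIPs than in all 3 IgG RIPs, and it overlapped with input. The marker *P2ry12* was at 0 in all 3 CELF2-KI RIPs. Of the 5 tested one by one, 1 was called higher over IgG and 2 lower, with a median log2 of -1.57. Over input 1 was called higher and 3 lower, with a median log2 of -2.30 and fitted values of -3.43 to 9.09. Over all tested genes the shares were 13.4% higher and 13.6% lower over IgG, and 14.6% and 15.5% over input. The sum therefore does not describe the markers one by one. The part of these markers in the *Kcna3* values was not tested.

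*Kcna4* encodes Kv1.4, the member of the family with fast A-type inactivation. Its level was 48.9, 64.8 and 52.2 CPM in the CELF2-KI RIPs, 36.3, 37.2 and 27.4 in the IgG RIPs and 28.5, 31.1 and 27.4 in input. All 3 RIPs were above all 6 controls, which overlapped with each other. Its log2 difference was 0.72 ± 0.16 SE over IgG RIPs (interval 0.36 to 1.07, FDR = 0.0033) and 0.93 ± 0.16 SE over input (interval 0.58 to 1.28, FDR = 0.00057). Both met the FDR and neither met the 2-fold criterion. Without CELF2-KI RIP replicate 1 the difference over input was 1.01 and passed the call.

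*Kcna1* encodes Kv1.1, which lowers excitability in axons, and *Kcna6* encodes Kv1.6, a subunit found in mixed channels with both Kv1.1 and Kv1.2. *Kcna1* was at 30.4, 22.3 and 26.3 CPM in the CELF2-KI RIPs, 15.3, 18.6 and 16.5 in the IgG RIPs and 24.6, 21.3 and 22.3 in input. *Kcna6* was at 253, 176 and 204 CPM in the RIPs, 152, 167 and 162 in the IgG RIPs and 189, 181 and 176 in input. For both genes the RIPs were all above the IgG RIPs and overlapped with input, and the IgG RIPs were all below input. Over IgG the log2 differences were 0.65 ± 0.16 SE for *Kcna1* (FDR = 0.00502) and 0.40 ± 0.13 SE for *Kcna6* (FDR = 0.0258), both under 2-fold. Over input both were 0.21, with intervals of -0.12 to 0.55 and -0.08 to 0.50, and under total counts both were -0.24, so their direction over input turns with the scaling. At 0.02 above the median of all tested genes, each sat at the middle of all genes in that comparison.

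*Kcna5* encodes Kv1.5, a subunit best known from heart and vascular muscle. It had the lowest counts of the pore subunits, 26 to 34 estimated counts per CELF2-KI RIP, 22 to 52 per IgG RIP and 283 to 443 per input sample. Its level was 2.32, 2.62 and 2.32 CPM in the CELF2-KI RIPs, 3.07, 2.18 and 3.73 in the IgG RIPs and 4.50, 4.88 and 5.47 in input. All 6 pull-downs were below all 3 input samples, and the 2 kinds of pull-down overlapped. It was called lower than input, with a log2 change of -1.03 ± 0.26 SE (interval -1.61 to -0.46, FDR = 0.00593). Over IgG RIPs the difference was -0.31 ± 0.27 SE (FDR = 0.349), and IgG RIPs stood at -0.72 ± 0.25 SE against input (FDR = 0.0459). Replicate numbers paired the CELF2-KI RIPs with the input samples, and with the number as a block the change was -1.02 with an FDR of 0.0121, so the call was lost. It was also lost without any 1 of the 3 CELF2-KI RIPs or the 3 input samples, where the log2 values were -1.15 to -0.96. The same held with glmTreat, with curated rows only (-1.06) and with rows of the same accession version only (-1.10).

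**Figure D2:**
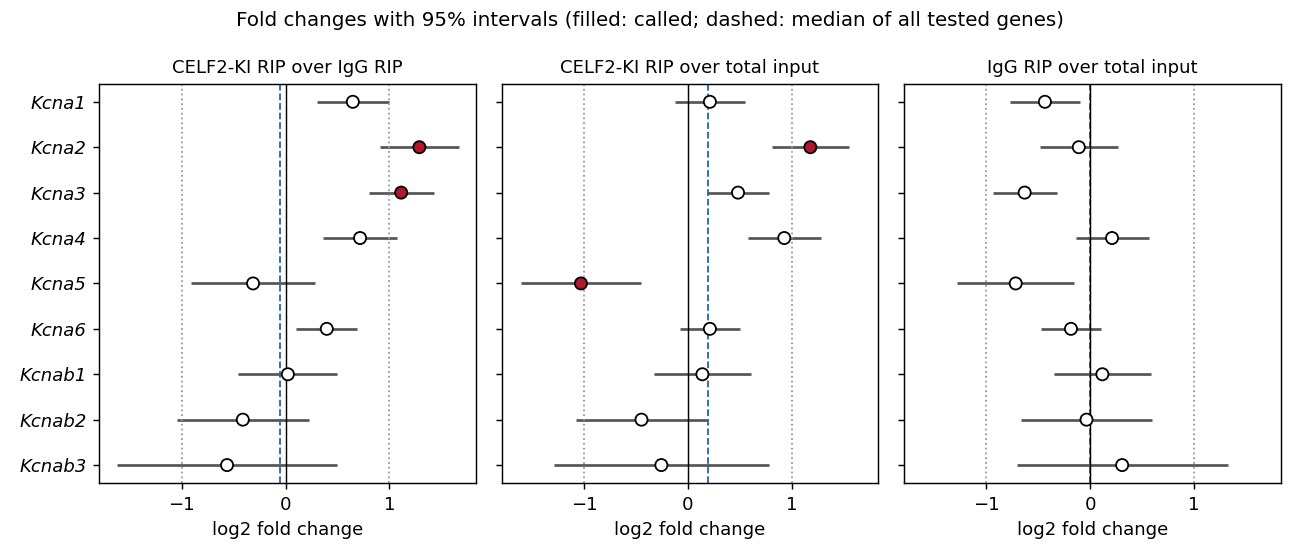
Log2 fold change (horizontal axis) of the 9 genes in each comparison, with 95% intervals; filled points passed the call, the dashed line is the median of all tested genes and dotted lines mark 2-fold. *Kcna2* is filled in both comparisons with the CELF2-KI RIP, *Kcna3* only over IgG and *Kcna5* only, and lower, against input.

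The beta subunits showed no difference that passed the call. Of the 3, 0 were called in any comparison by edgeR, 0 had an unadjusted p under 0.05 and 0 were called by DESeq2. *Kcnab1*, whose product can give fast inactivation to Kv1 channels, was at 13.6, 11.9 and 13.4 CPM in the CELF2-KI RIPs, 15.6, 14.1 and 8.53 in the IgG RIPs and 12.4, 11.7 and 11.2 in input. The 3 conditions overlapped, and the log2 difference was 0.02 over IgG (interval -0.45 to 0.50) and 0.14 over input (interval -0.33 to 0.61). *Kcnab2*, whose product is the main beta subunit of Kv1 channels in brain, was at 37.7, 19.8 and 24.5 CPM, then 22.1, 46.6 and 40.7, then 36.4, 36.8 and 38.6 in the same order. The pull-downs of both kinds were widely spread and overlapped, while the 3 input samples lay close together. Its log2 difference was -0.41 over IgG (interval -1.05 to 0.23) and -0.45 over input (interval -1.08 to 0.19), so a change of 2-fold downward was within the interval of both. *Kcnab3* was at 3.92, 1.77 and 3.03 CPM in the CELF2-KI RIPs, 2.57, 2.38 and 7.88 in the IgG RIPs and 3.29, 3.22 and 3.90 in input. Its difference over IgG, -0.56 (interval -1.63 to 0.50), was 0.22 without IgG RIP replicate 3, the library at 7.88.

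By role, 5 of the 6 pore subunits and 1 of the 3 beta subunits had log2 values above 0 over IgG RIPs, with medians of 0.68 and -0.41 against -0.06 for all tested genes. Over input the counts were again 5 of 6 and 1 of 3, with medians of 0.35 and -0.26 against 0.19, and scaled by total counts *Kcna1*, *Kcna6* and *Kcnab1* turned below 0 in that comparison. The difference between the roles was not tested. All 3 CELF2-KI RIPs were above all 3 IgG RIPs for 5 of the 9 genes, against 30% of tested genes. They were above all 3 input samples for 3, *Kcna2*, *Kcna3* and *Kcna4*, against 42.1%, and for these 3 also above all 6 controls, against 25.2%. They were below all 3 input samples for 1, *Kcna5*, against 31.8%, and below all 6 controls for 0, against 19.9%. The IgG RIPs were below all 3 input samples for 4, *Kcna1*, *Kcna3*, *Kcna5* and *Kcna6*, against 29.4%. Between the controls 0 of 9 genes were called by edgeR and 0 by DESeq2, and 3 had an unadjusted p under 0.05. In that comparison 6.79% of tested genes were called higher and 5% lower (11.8% in either direction).

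A ratio of 2 genes within a library does not depend on how libraries are scaled, and *Kcna2* was set against each other member in this way, as a description. The log2 ratio of *Kcna2* to *Kcna1* was 1.55, 2.02 and 1.98 in the CELF2-KI RIPs, 1.47, 0.61 and 1.43 in the IgG RIPs and 0.89, 0.86 and 0.87 in input. The RIP libraries were the 3 highest, and the lowest of them was close to the highest IgG RIP. Against *Kcna6* the ratio was -1.503, -0.97 and -0.98 in the RIPs, -1.84, -2.55 and -1.87 in the IgG RIPs and -2.05, -2.23 and -2.12 in input, again with all RIPs above all controls. The widest separation was from *Kcna5*, at 5.10 to 5.48 in the RIPs, 3.58 to 3.79 in the IgG RIPs and 2.89 to 3.34 in input. The ratios to *Kcnab1*, *Kcnab2* and *Kcnab3* also placed all 3 RIPs above all 6 controls, at 1.24 to 2.19 for *Kcnab2* against -0.71 to 0.94 in the IgG RIPs and 0.06 to 0.33 in input. The ratios to *Kcna3* and *Kcna4* overlapped with the IgG RIPs. That to *Kcna4* also overlapped with input, at 0.47 to 0.99 in the RIPs and 0.31 to 0.68 in input. Of the summed CPM of the 6 pore subunits, *Kcna2* took 22.3% ± 2.5 (SD, n = 3) in the CELF2-KI RIPs, 14.4% ± 3.3 in the IgG RIPs and 13.6% ± 0.79 in input, and *Kcna6* took 49.5% ± 5.1, 59.8% ± 2.3 and 59.7% ± 0.44. Since CPM is not divided by transcript length, each share is read between conditions only and does not rank the genes.

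**Figure D3:**
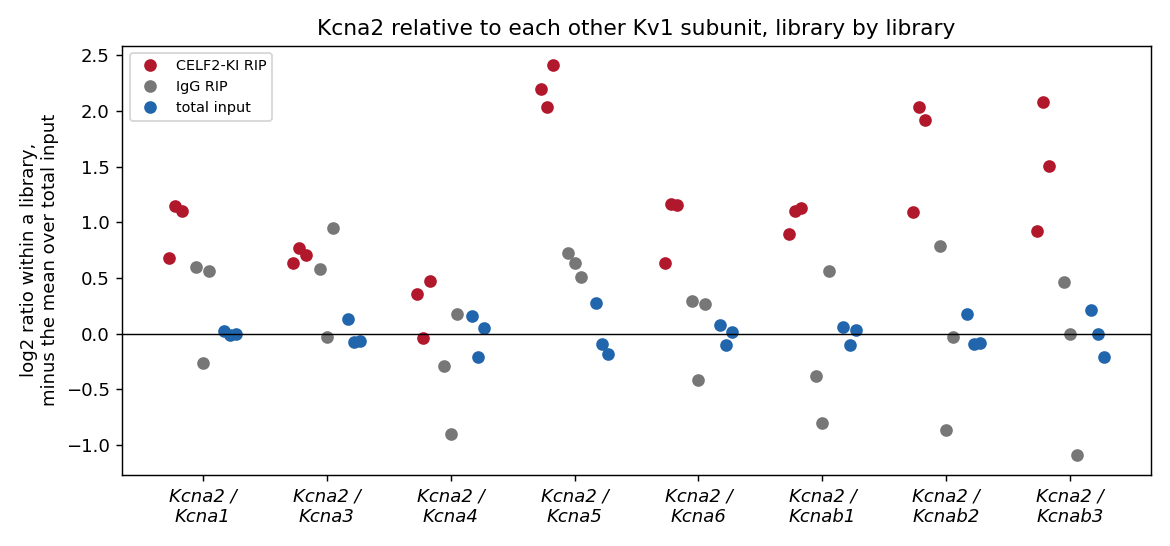
Log2 ratio of *Kcna2* to each other Kv1 subunit in each library (vertical axis), with the mean over the 3 input samples set to 0 for each pair; points are libraries, colored by condition. The CELF2-KI RIP points lie above all control points for 6 of the 8 pairs, and mix with control points for *Kcna3* and *Kcna4*.

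Across the 9 libraries the genes whose log2 CPM (with a prior count of 2) followed *Kcna2* most closely were *Inka2*, *Lratd1*, *Mcmbp*, *Galnt15* and *Traf6*, with Pearson's r between 0.982 and 0.984. These correlations describe 9 libraries of 3 conditions that share their scaling, and no p is given. *Traf6*, a ubiquitin ligase of immune signaling, was at 78.5 to 89.8 CPM in the CELF2-KI RIPs, 25.0 to 33.3 in the IgG RIPs and 31.3 to 33.1 in input. Within the family *Kcna3* and *Kcna4* came nearest to *Kcna2*, each with r of 0.79, at ranks 2869 and 2887. *Kcna1* and *Kcna6*, neighbors on chromosome 6, had r of 0.93 with each other and 0.65 and 0.64 with *Kcna2*. *Kcna5*, in the same cluster, had r of -0.15 with *Kcna1* and -0.28 with *Kcna6*.

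Row by row, the counts of a gene are split among its RefSeq transcripts by the authors' pseudoalignment, which shares out reads common to several rows. *Kcna1*, *Kcna3*, *Kcna5* and *Kcnab3* had 1 row each, so the gene's counts are the row's counts. Rows were fitted apart from genes, with their own scaling and spread, so fitted values differ. As a row *Kcna3* was at 0.89 over IgG (FDR = 0.0145) and 0.0019 over input, and was not called. *Kcna5* as a row was at -1.52 against input (FDR = 0.071), also not called, and *Kcna1* over input was at -0.26. *Kcna2* had 8 rows, of which 1 (NM_008417.5) is curated and 7 are predicted, and the split differed widely between replicates. NM_008417.5 held 300, 517 and 564 estimated counts in the CELF2-KI RIPs, 95, 0.10 and 513 in the IgG RIPs and 983, 1826 and 912 in input. The IgG RIPs ranged from almost none to 82.8% of the gene's counts in this row, so the row had an interval of -2.06 to 4.38 around a log2 difference of 1.16 over IgG. The gene sum does not depend on this split, and counting the curated row alone gave 1.31 over IgG and 1.15 over input with FDRs of 0.412 and 0.468. One predicted row, XM_006501048.3, was at 0 in all 3 IgG RIPs and held 95, 264 and 359 counts in the CELF2-KI RIPs and 763, 690 and 513 in input. Its mean of 16.8 CPM in the RIPs was at least 71.9-fold higher than the floor of 3 counts per IgG library, and its mean in input at least 47.7-fold higher. These bounds apply to counts as shared out among rows, since the IgG RIPs held the gene's counts in other rows. Summed to the gene, IgG RIPs and input differed by a log2 of -0.11. XM_006501048.3 was the 1 member row called of 20 tested in CELF2-KI over IgG RIPs (FDR = 0.00182), against 3.19% of rows called higher and 3.15% lower, and the 1 called lower in IgG RIPs than in input (FDR = 0.00506), against 1.65% lower and 0.879% higher. Both calls were lost with the replicate number as a block, and the call against input was also lost without CELF2-KI RIP replicate 2 or 3, IgG RIP replicate 1 or 2 or any 1 input sample. Over input 0 of 20 member rows were called, with 1 at an unadjusted p under 0.05, against 0.94% of rows called higher and 4.51% lower.

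**Figure D4:**
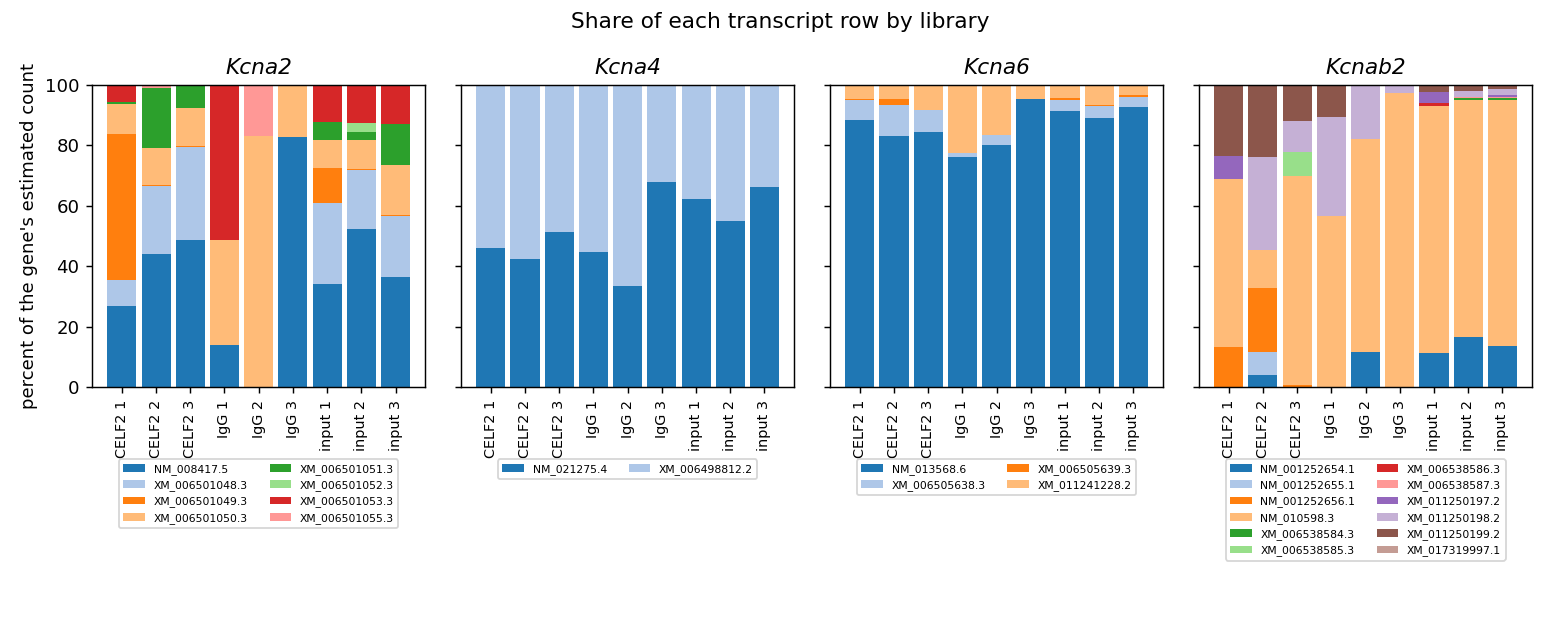
Percent of each gene's estimated counts (vertical axis) assigned to each transcript row in each of the 9 libraries, for *Kcna2*, *Kcna4*, *Kcna6* and *Kcnab2*; colors are rows. The 3 IgG RIP bars of *Kcna2* are unlike each other and lack XM_006501048.3, which takes 8.55% to 31.0% of the CELF2-KI RIP bars.

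*Kcna4* had 2 rows of similar size, and its curated row NM_021275.4 took 42.5% to 51.2% of the gene's counts in the CELF2-KI RIPs, 33.6% to 68.0% in the IgG RIPs and 55.04% to 66.2% in input. The RIP range lay below that of input and overlapped with IgG, and the row's log2 change against its gene was -0.39 over input (FDR = 1). *Kcna6* had 4 rows, with 76.1% to 95.4% of counts in the curated NM_013568.6 in every library. *Kcnab1* had 3 rows, and 87.0% to 96.8% of its counts in the CELF2-KI RIPs and at least 98.8% in all 6 controls fell in NM_010597.4. The second curated row of *Kcnab1*, NM_001289450.1, held 22, 9.0 and 4.8 counts in the CELF2-KI RIPs, 0 in all 3 IgG RIPs and 0, 13 and 0 in input. That row did not reach the filter and was not tested in the main comparison. *Kcnab2* had 12 rows, 1 of them at 0 in every library, and NM_010598.3 took 78.2% to 81.7% of its counts in input, 12.5% to 68.8% in the CELF2-KI RIPs and 56.8% to 97.2% in the IgG RIPs, which overlapped with both. In the test of row use within a gene 0 of 15 member rows were called over IgG and 0 over input, with 4 and 0 at an unadjusted p under 0.05, against 0.717% and 0.502% of all rows called. Of 199 simulated rows raised 4-fold this test called 0, so shifts between rows of that size were not detectable here. *Kcnab2* overlaps *Nphp4* by 844 bases. *Kcna2*, *Kcna6* and *Kcnab1* overlap noncoding genes that held 0 to 82 counts per library.

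Kv1 channels work in a complex with other proteins, and 17 genes of partners and relatives of the family were listed. They comprise the secreted LGI proteins and their ADAM receptors, the CASPR and contactin adhesion proteins, the PSD-95 family of scaffolds, the linker *Epb41l3*, the pore subunits *Kcna7* and *Kcna10*, and *Kcnip1*, which is known as a subunit of Kv4 channels and not of Kv1. *Kcna7* and *Kcna10* fell below the filter, and of the 15 tested 3 were called higher over IgG RIPs and 3 lower, against 13.4% and 13.6% of all tested genes, with a median of -0.36 against -0.06. Over input 3 were called higher and 4 lower, against 14.6% and 15.5%, with a median of -0.44 against 0.19. Scaled by total counts, 0 were called higher and 3 lower over IgG, and 1 higher and 5 lower over input. *Adam22*, the receptor that links LGI1 to the Kv1 complex, was at 584, 847 and 662 CPM in the CELF2-KI RIPs, 261 to 277 in the IgG RIPs and 216 to 240.0 in input. *Lgi2*, a secreted ligand of this receptor family, was at 120, 153 and 129 CPM, against 49.995 to 60.7 in the IgG RIPs and 51.0 to 57.9 in input. Both were targets, at log2 values of 1.37 and 1.28 over IgG and 1.60 and 1.27 over input, and over IgG both were short of 2-fold when scaled by total counts (0.99 and 0.91). The call of *Lgi2* over input was also lost with total counts (0.80), TMM over noncoding genes too and glmTreat, which tests against the 2-fold line itself. *Adam23* was called over IgG at 1.10 but not over input at 0.65, and its call over IgG was kept in 12 of 21 alternatives. It was lost with total counts (0.72), upper quartile scaling, TMM over noncoding genes too and either choice of fewer rows, and without CELF2-KI RIP replicate 2, IgG RIP replicate 3 or input replicate 2.

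Other genes of these families, named after their values were seen, gave other patterns. *Lgi1*, the best known secreted ligand of the family, was at 25.4, 17.8 and 15.8 CPM in the CELF2-KI RIPs, 23.3, 23.1 and 29.1 in the IgG RIPs and 44.1, 44.6 and 39.5 in input. Both kinds of pull-down were below input and overlapped with each other, and *Lgi1* was called lower than input at -1.12 (FDR = 0.00051) in all but 2 of 20 alternatives, glmTreat and the fit without CELF2-KI RIP replicate 3. *Adam11*, a relative of *Adam22*, was at 213, 217 and 216 CPM in the CELF2-KI RIPs, 286, 248 and 140.04 in the IgG RIPs and 91.0 to 93.3 in input. It was called higher than input in both kinds of pull-down, at 1.22 in the CELF2-KI RIPs and 1.28 in the IgG RIPs, and differed by -0.06 between them. Its call over input in the CELF2-KI RIPs was kept in 15 of 21 alternatives and lost, among others, with total counts (0.76).

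Of the listed genes 3 were called lower than both controls, against 9.54% of all tested genes. *Dlg4*, which encodes the synaptic scaffold PSD-95, was at 111, 90.5 and 100.2 CPM in the CELF2-KI RIPs, 250 to 266 in the IgG RIPs and 284 to 338 in input, with log2 changes of -1.37 over IgG and -1.62 over input. Its calls held in all 21 alternatives. *Kcnip1*, a calcium-binding subunit of Kv4 channels, was at 3.08 to 3.75 CPM against 7.43 to 10.9 and 16.0 to 18.3, with log2 changes of -1.34 and -2.30. *Epb41l3*, a membrane skeleton linker of the axon, was at 12.2 to 21.6 CPM against 28.1 to 86.9 and 44.0 to 69.4, with log2 changes of -1.60 and -1.83. The call of *Epb41l3* over IgG was lost in 11 of 21 alternatives, among them the replicate block and the fits without any 1 of the CELF2-KI RIPs. Its call over input was lost in 6 of 21, among them the fits without CELF2-KI RIP replicate 1 or 3 or input replicate 3.

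**Figure D5:**
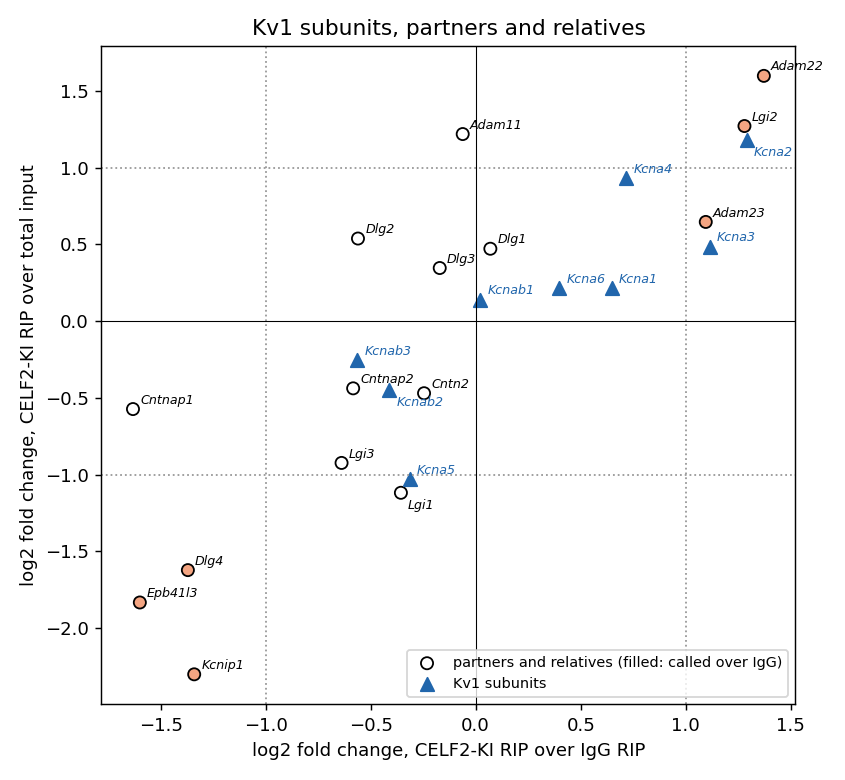
Log2 change in CELF2-KI RIPs against IgG RIPs (horizontal) and against total input (vertical) for the 9 Kv1 subunits (triangles) and 15 tested partners and relatives (circles, filled where called over IgG); dotted lines mark 2-fold. *Kcna2*, *Adam22* and *Lgi2* lie beyond both lines at the upper right, and *Dlg4*, *Epb41l3* and *Kcnip1* beyond both at the lower left.

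Other voltage-gated channels of neurons were read from lists by family. Of 9 tested genes of the Kv2, Kv3 and Kv4 families, 5 were called higher over IgG RIPs and 3 over input, and 0 and 1 lower, with medians of 1.13 and 0.74, and 2 were targets. Over all tested genes the shares were 13.4% and 14.6% higher, 13.6% and 15.5% lower and 7.58% targets. Scaled by total counts, 1 was called higher over IgG and 1 lower, and over input 2 higher and 1 lower. Of 6 voltage-gated sodium channel genes, 1 was called higher over IgG and 3 over input, against the same shares, with medians of 0.65 and 1.09, and 1 was a target, and scaled by total counts 0 were called in either. The Kv1 medians over the same comparisons were 0.40 and 0.21. No test of the difference between these lists was made.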

How the data were processed

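RIP-seq libraries were made and processed by the authors with rRNA depletion, directional library preparation, trimming and kallisto 0.51.1 pseudoalignment. They deposited estimated counts per RefSeq transcript, not normalized; their paper names an Ensembl transcriptome, and the labels mm10. All 9 columns were used and 0 left out. Of 107384 rows, 86722 (80.8%) matched a gene by accession without its version in a RefSeq table of GRCm38.p6; the rest were left out. The estimated counts of a gene's rows were added and then rounded.

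edgeR 4.0.16 in R 4.3.3 (limma 3.58.1, DESeq2 1.42.0) fitted all 9 libraries with a mean per condition, TMM scaling and the quasi-likelihood test, for genes at 0.5 CPM or more in 3 or more libraries. Calls took a Benjamini-Hochberg FDR under 0.01 over all tested genes and at least 2-fold. Rows were tested alike (39137 rows), and row use with diffSpliceDGE. The tools differ in version from the authors' edgeR 4.4.0 and DESeq2 1.46.0. Summaries and plots used Python 3.11.15 with pandas 2.3.3, numpy 2.4.6 and matplotlib 3.10.9.

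Members, lists and tests were chosen with earlier results of these data known. Named by rule were all members, *Celf2*, the 5 genes best correlated with *Kcna2*, and partners called over IgG RIPs. *Lgi1* and *Adam11*, not called over IgG RIPs, were added after their values were seen. 1 listed partner is not reported here and was left out of the counts. Replicates differed by more than sampling noise (chi-square per gene 11.8 to 43.6). Deviations of same-numbered libraries from their condition means correlated, across genes, at 0.110, 0.117 and 0.122 between CELF2-KI RIPs and input. The numbers were therefore taken to pair these. Between CELF2-KI and IgG RIPs the correlations were -0.056, 0.043 and 0.014. Between IgG RIPs and input they were 0.030, 0.065 and 0.038, while unlike numbers reached 0.043. On simulated data with 15267 genes, 39 of 50 genes raised 4-fold were called over IgG and 43 of 50 over input; of rows, 0 of 47 raised 4-fold were called. Intervals cover the spread of these libraries only, and a fold against a group at or under 3 counts per library is a bound. Alternatives covered scaling, filter, test, block, the rows used and each library left out.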

Additional observations from a re-analysis of the deposited data

How the results depend on the processing

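Scaling moved all genes together. The median log2 of all tested genes was -0.06 over IgG RIPs and 0.19 over input, and -0.42 and -0.27 with total counts. *Kcna2* was a target in 14 of 21 alternatives, and relative to that median it stood at 1.14 to 1.47 over IgG and 0.92 to 1.13 over input in all 21. *Kcna3* over IgG was called in 15 of 21 and *Kcna5* against input in 11 of 21. *Kcna5* rests on 22 to 52 counts and *Kcnab3* on 23 to 110 per pull-down. The common coefficient of variation between replicates was 0.995 for transcript rows and 0.22 for genes. The causes of lost calls were not tested.

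With total counts, 937 genes were called higher and 3421 lower over IgG, with 0 Kv1 genes. Over input 531 were called higher and 3581 lower, where the 1 Kv1 gene called was *Kcna5*, lower, and 237 were targets. With upper quartile scaling 1212 were called higher over IgG and 1177 over input. The 1 Kv1 gene called was *Kcna2* over IgG and *Kcna5*, lower, over input, and 519 were targets. With TMM over coding and noncoding genes 1349 were called higher over IgG and 707 over input. The 1 Kv1 gene called was again *Kcna2* over IgG and *Kcna5*, lower, over input, while 1246 were called lower in IgG RIPs than in input, and 376 were targets. With glmTreat, which tests against the 2-fold line itself, 545 were called higher and 622 lower over IgG, 339 higher and 1117 lower over input, and 100 higher and 53 lower between IgG RIPs and input, with 0 Kv1 genes and 121 targets.

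With curated rows only, 0 Kv1 genes were called in either comparison, 1411 genes were called higher over input, 489 higher and 402 lower in IgG RIPs over input, and 758 were targets. With rows of the same accession version only, 1315 were called higher over IgG and 1247 over input, with 0 Kv1 genes in each, 545 higher and 434 lower in IgG RIPs over input, and 662 were targets. With only the conditions compared in the fit, 1438 were called higher over input, the 1 Kv1 gene called was *Kcna5*, lower, and 688 were targets. With the replicate block 1 Kv1 gene was called against input, since *Kcna5* was lost, and the block changed no other call of a Kv1 gene. With the block 668 rows were called over IgG, 676 over input and 0 between IgG RIPs and input, with 0 Kv1 rows, and 112 and 91 rows were called in row use. IgG RIPs were not clearly paired with the other libraries by their numbers, so the block there rests on a shared number only.

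Without 1 library at a time, 1 to 2 Kv1 genes were called against input and 555 to 1537 genes were higher in IgG RIPs than in input. Rows called ranged from 1207 to 3118 over IgG, with 1 to 2 Kv1 rows, from 727 to 2827 over input, and from 0 to 1782 between IgG RIPs and input, with 0 to 1 Kv1 rows. Row use ranged from 121 to 408 rows over IgG and from 50 to 377 over input.

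The log2 values that changed sign belonged to Kv1 genes that were not called in that comparison. *Kcnab1* over IgG was -0.35 with total counts, -0.039 with DESeq2 size factors, -0.040 with the DESeq2 Wald test, -0.24 with upper quartile, -0.18 with TMM over noncoding genes too, -0.067 with no filter, -0.16 with curated rows and -0.018 with only the conditions compared. Over input, *Kcna1*, *Kcna6* and *Kcnab1* were -0.24, -0.24 and -0.32 with total counts, -0.0233, -0.0233 and -0.097 with upper quartile, -0.17, -0.16 and -0.24 with TMM over noncoding genes too, and -0.0095, -0.0087 and -0.083 with only the conditions compared. Between IgG RIPs and input, *Kcnab1* was -0.064 with TMM over noncoding genes too, and *Kcna4* was -0.044 with curated rows and -0.099 with same-version rows. With same-version rows, where few counts remained for these genes, *Kcnab2* was 2.38 over input and 3.48 in IgG RIPs over input, and *Kcnab1* had a fitted value of -4.39 in IgG RIPs over input and 8.25 in CELF2-KI over IgG RIPs. Its remaining rows were at 0 in all 3 IgG RIPs, so these 2 fitted values depend on the prior count and measure no fold.

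Without 1 library at a time *Kcnab1* over IgG was -0.21 to 0.20, and it turned below 0 without CELF2-KI RIP replicate 1 or 3, IgG RIP replicate 3 or input replicate 2. *Kcnab3* was -0.84 to 0.22 over IgG, -0.53 to 0.0071 over input and -0.48 to 0.59 in IgG RIPs over input, with the turn of the first and last without IgG RIP replicate 3 and of the other without CELF2-KI RIP replicate 2. Between IgG RIPs and input *Kcna2* was -0.22 to 0.057, turning without IgG RIP replicate 2, while *Kcnab1* was -0.057 to 0.35 and *Kcnab2* -0.26 to 0.23, both turning without IgG RIP replicate 1.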
